A study of Mus musculus with 4 samples.

Results

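The 4 genes *Runx1*, *Runx2*, *Runx3* and *Cbfb* were followed as rows of the UMI matrices (4 of 31053 genes), chosen by name as the mammalian RUNX transcription factors and their shared partner. They were read in sorted adult prostate cells and in explants of the embryonic urogenital sinus, the tissue whose epithelium forms the prostate buds. All mice were of the ICR (CD-1) strain. The adult mice carried P2-*Runx1*:RFP, a reporter of the proximal *Runx1* promoter, so intact and castrated animals and RFP+ and RFP- cells share that allele, and the labels give no reporter genotype for the explants. The paper describes it as a modified *Runx1* allele, with wild-type *Runx1* coming from the other allele. Adult *Runx1* levels were thus read in mice with an altered *Runx1* locus. Droplet libraries were made in 3 adult runs and 1 explant run, which held a separate pool for each day of culture. They used 10x Genomics 3′ chemistry, which counts the 3′ end of each mRNA as unique molecules (UMIs).

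Adults were over 8 weeks old. EPCAM+ cells were sorted, lobe by lobe (AP, anterior; DLP, dorsolateral; VP, ventral), into RFP+ and RFP- fractions and tagged with lipid-linked barcodes (MULTI-seq) before pooling. Intact glands came from pools of 4, 3 and 4 mice in runs 1, 2 and 3, and these runs served as replicates. Castrated mice had been without androgen for over 4 weeks and came as 1 pool of 4 mice with lobes mixed in run 1 and 1 pool of 5 mice with lobes apart in run 2. The barcode of the intact DLP RFP+ cells failed in runs 1 and 2, so that population was seen only in run 3. Explants were taken from E15.5 embryos and cultured with 10 µM dihydrotestosterone for 0, 1, 3 or 6 days, from 1, 2, 1 and 2 litters. Their middle regions were dissected out, and EPCAM+ cells were sorted for each day. RFP mRNA was not analysed here. In the sample sheet of run 3 the barcode sequences listed for the VP populations repeat those of the AP, while the barcodes inside their oligo sequences differ. Cells were assigned by barcode number. The 50 most abundant genes held 66.7% and 63.0% of UMIs in run 3 VP RFP+ and RFP- luminal cells, 62.8% to 67.3% in VP luminal cells of all runs, and 29.6% and 32.1% in run 3 AP RFP+ and RFP- luminal cells.

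After filtering, 824, 2194, 1673 and 5198 cells carried 1 barcode in the adult runs 1, 2 and 3 and the explant library, with median depths of 13055, 10618.5, 9750 and 14784.5 UMIs. Of these 9889 cells, 5 cell barcodes occurred in more than 1 library. Epithelial cells with at least 5 *Krt5* and *Krt14* UMIs per 10000 were called basal, and the other adult epithelial cells luminal, which gave 2004 basal and 2115 luminal cells of 4691. *Trp63*, a basal factor, was detected in 56.7% of basal and 3.69% of luminal cells, and the leukocyte gene *Ptprc* in 0.0499% and 0.189%. *Ptprc* is among the genes used to set leukocyte-marker cells apart, so its low shares largely follow from that rule. *Krt8* or *Krt18* UMIs were found in 99.2% of cells of both classes. The 392 adult cells with leukocyte markers were held apart from both classes. They were unevenly spread, at 231 of 452 cells of intact AP RFP+ in run 2 (51.1%), 36 of 466 in run 1 (7.73%) and 0 of 388 in run 3.

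RUNX proteins bind DNA through the Runt domain, and CBFB, which does not bind DNA itself, joins them and steadies that contact. RUNX1 is best known from the origin of blood stem cells and from hair follicle and mammary epithelium, RUNX2 from bone formation, and RUNX3 from T cells, natural killer cells and sensory neurons. Each *Runx* gene has a distal promoter (P1) and a proximal promoter (P2), whose transcripts differ at the 5′ end, so 3′ counting cannot tell them apart. The RFP gate reads P2.

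On GRCm38, *Runx1* (ENSMUSG00000022952) spans chr16:92601466-92826149 on the minus strand, *Runx2* (ENSMUSG00000039153) chr17:44495987-44814797 on the minus strand, *Runx3* (ENSMUSG00000070691) chr4:135120652-135177990 on the plus strand and *Cbfb* (ENSMUSG00000031885) chr8:105170674-105217989 on the plus strand. The 250 bases before each *Runx1* start site are shown because the reporter stands for only the first of them. Both are from RefSeq (GRCm38.p6), 5′ to 3′ on the minus strand, the proximal one from chr16:92697330-92697579 and the distal one from chr16:92826075-92826324.
Runx1 proximal (P2): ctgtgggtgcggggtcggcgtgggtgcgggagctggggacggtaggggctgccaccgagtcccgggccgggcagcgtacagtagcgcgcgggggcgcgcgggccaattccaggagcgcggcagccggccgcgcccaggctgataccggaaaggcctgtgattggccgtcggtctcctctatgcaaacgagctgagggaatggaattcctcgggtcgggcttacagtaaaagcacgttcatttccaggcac
Runx1 distal (P1): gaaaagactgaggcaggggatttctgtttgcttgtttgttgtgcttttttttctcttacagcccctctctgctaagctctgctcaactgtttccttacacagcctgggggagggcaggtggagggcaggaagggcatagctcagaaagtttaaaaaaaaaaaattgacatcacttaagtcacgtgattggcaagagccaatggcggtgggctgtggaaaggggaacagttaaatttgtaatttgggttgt

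The letters ACCACA, the core that RUNX proteins recognise and that reads TGTGGT on the other strand, were searched on both strands of windows from 250 bases before to 50 after each start. They stood in 5506 of 32851 windows (16.8%), and 595 windows (1.81%) held 2 or more. The *Runx1* P2 window, the *Runx3* proximal window and the *Cbfb* window held no match, and the distal *Runx1* and *Runx3* windows and the *Runx2* window held 2, 2 and 3. In each of these last windows 2 cores stood side by side, joined by GA and preceded by A, a string read from the members' own windows and then found on either strand in 4 of 32851 windows. The fourth window belongs to *Gm16225*, whose start lies on the opposite strand beside distal *Runx3*. The 30 bases around it are shown with both cores in capitals, from chr16:92826026-92826055 (minus strand, the string beginning at +28 from the start), chr17:44814584-44814613 (minus strand, +23) and chr4:135120502-135120531 (plus strand, -135). A match in letters does not show binding.
Runx1 distal: tcataaacaACCACAgaACCACAagttggg
Runx2: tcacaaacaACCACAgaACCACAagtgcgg
Runx3 distal: ggtccctcaACCACAgaACCACAaggccag

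*Runx1* was widespread in the basal layer and divided among luminal cells. In AP RFP+ luminal cells it stood at 104, 143 and 123 counts per 1000000 UMIs (CPM) in runs 1, 2 and 3, against 19.5, 15.1 and 17.9 CPM in AP RFP- luminal cells. All 3 RFP+ values lay above all 3 RFP- values. In AP basal cells the RFP+ values were 83.3, 163 and 170 CPM and the RFP- values 65.6, 97.0 and 118 CPM. Within each run the RFP+ basal value was the higher one, but across runs the groups overlapped.

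Luminal cells of the other lobes lay below AP RFP+ luminal cells on this scale. VP RFP+ luminal cells held 16.3, 15.4 and 21.8 CPM, and VP RFP- luminal cells 10.8, 6.11 and 3.92 CPM, the first of these from only 10 cells. DLP RFP- luminal cells held 29.9, 26.1 and 17.0 CPM. Basal cells were higher in every lobe, at 78.8, 102 and 74.3 CPM in DLP RFP-, 61.0, 97.5 and 130 CPM in VP RFP+, and 63.6 and 62.4 CPM in VP RFP- of runs 2 and 3 (run 1 had 6 such cells and was left out). Outside AP RFP+, every luminal value of the intact glands, from 3.92 to 29.9 CPM, thus stood below every basal one, the lowest of which was 61.0 CPM.

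**Figure D1:**
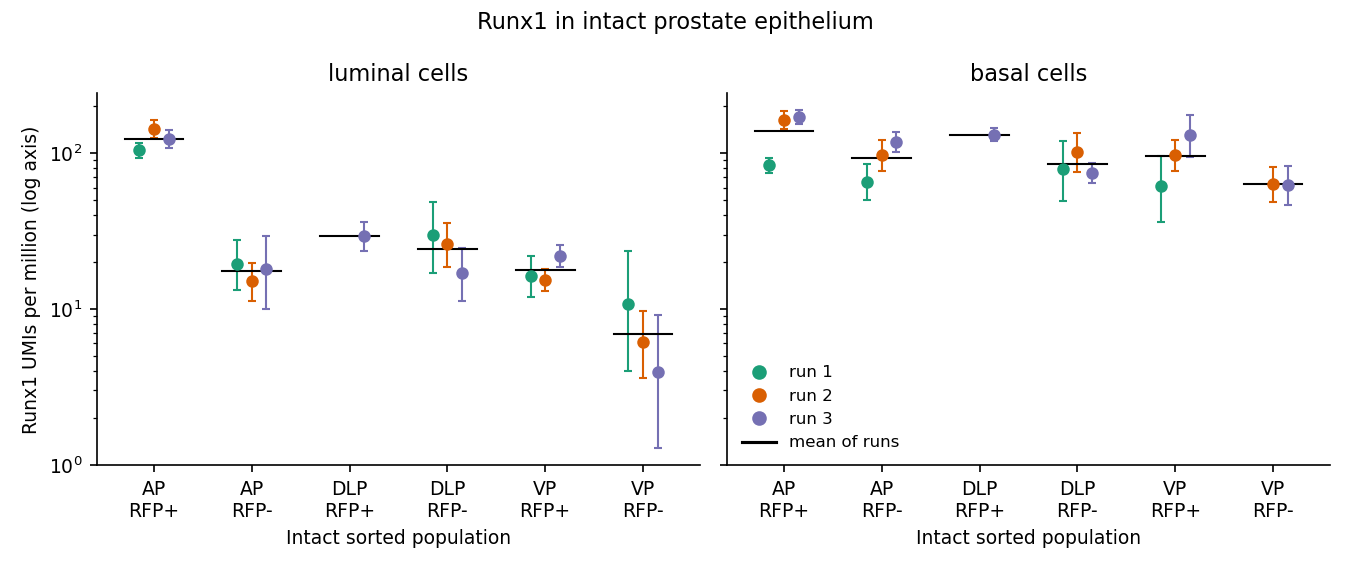
*Runx1* CPM (log axis) in each intact sorted population, luminal cells at left and basal cells at right, with 1 point per run, its 95% exact Poisson interval and a bar at the mean of the runs. AP RFP+ is the luminal population that reaches the basal range, at 104 to 143 CPM.

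Ordered by their means, the intact populations ran from AP RFP+ basal (139 ± 48.0 CPM, SD, n = 3), DLP RFP+ basal (131 CPM, run 3 alone) and AP RFP+ luminal (123 ± 19.3 CPM) through VP RFP+ basal (96.3 ± 34.6 CPM), AP RFP- basal (93.6 ± 26.4 CPM) and DLP RFP- basal (85.1 ± 15.0 CPM) to VP RFP- basal (63.0 CPM, 2 runs). Each neighbour among the first 6 overlapped the next, and VP RFP- basal cells overlapped neither neighbour in this order, although their values lay within the range of VP RFP+ basal cells. Then came DLP RFP+ luminal (29.4 CPM, run 3 alone), DLP RFP- luminal (24.3 ± 6.62 CPM), VP RFP+ luminal (17.8 ± 3.49 CPM) and AP RFP- luminal (17.5 ± 2.22 CPM), which also overlapped in turn. VP RFP- luminal cells (6.95 ± 3.53 CPM) came last and overlapped none on the CPM scale.

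CPM levels of ventral luminal cells carry a dilution. A set of 50 abundant genes took 62.8% to 67.3% of their UMIs, against 23.6% to 47.1% in the other sums tested, and TMM factors were 0.51 to 0.62 there. The fits below use TMM, so their fold changes are relative to the bulk of genes. With library totals alone the median gene moved by 1.15 (basal minus luminal, VP RFP+), 0.94 (VP RFP-), 1.17 and 1.04 (AP minus VP luminal, RFP+ and RFP-) and 0.94 (DLP minus VP luminal) on the log2 scale. On the TMM scale *Runx1* stood at 28.3, 27.3 and 42.0 in VP RFP+ luminal cells, 17.4, 10.5 and 7.74 in VP RFP- luminal cells, and 16.3, 15.0 and 16.2 in AP RFP- luminal cells. The CPM order of these populations thus did not hold on this scale. VP RFP- luminal values overlapped those of AP RFP- luminal cells, and all VP RFP+ luminal values lay above the latter. The gap between luminal cells outside AP RFP+ and basal cells also narrowed on this scale. The highest such luminal value in the fit, 42.0 in VP RFP+ of run 3, stood just under the lowest basal one, 42.9 in VP RFP+ of run 1.

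The first comparison asked how far the mRNAs followed the sort. Sums of UMIs per run, population and class were tested with edgeR's quasi-likelihood test over 10655 genes, and *Runx3* was too low to enter. Since the gate read a *Runx1* reporter, the *Runx1* difference is a check of the sort. In AP luminal cells *Runx1* rose 2.73 ± 0.37 (log2 fold change ± SE, adjusted p = 9.57e-06, edgeR) from RFP- to RFP+. Of the 3 genes tested 2 were called there, where 20.7% of all genes were. The written method limits adult cells to under 7500 UMIs, whereas cells here were kept under 7500 genes, a departure from it. Under the written limit 615, 1520 and 568 cells of runs 1, 2 and 3 were left before barcodes in place of 1891, 4398 and 2243, and the *Runx1* difference was 1.73 (adjusted p = 0.114, edgeR), so that call is not made with the method as written. In AP basal cells the difference was 0.56 ± 0.33 (adjusted p = 1.00, edgeR), and 0% of genes were called (0 by DESeq2 too, with 180 genes at an unadjusted p under 0.05 in edgeR).

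In VP luminal cells *Runx1* differed by 1.57 ± 0.45 (adjusted p = 0.201, edgeR), higher in RFP+ in 3 of 3 runs, where 0.357% of genes were called (0.0188% higher). With run as a block, since RFP+ and RFP- cells of a run came from the same mice, the difference was 1.65 ± 0.38 (adjusted p = 0.0251, edgeR), and 97 genes were called in place of 38. It also passed without run 1, which holds the 10-cell sum (1.81 ± 0.35, adjusted p = 0.0290, edgeR). In VP basal cells it was 0.43 ± 0.41 (adjusted p = 0.819, edgeR) with 0.00939% of genes called, 15 genes under the block in place of 1.

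The sort separated *Runx1* more in luminal than in basal cells of the AP. The RFP effect in basal cells was lower than that in luminal cells by -2.17 ± 0.49 (log2, adjusted p = 0.00949, edgeR interaction), where 4.81% of genes were called (1348 genes under the block, 513 without). Without run 2 this was -2.02 (adjusted p = 0.298, edgeR) and without run 3 -2.12 (adjusted p = 0.115, edgeR), so the call needs both of these runs, and among cells under 7500 UMIs it was -1.51 (adjusted p = 0.605, edgeR). The corresponding VP difference was -1.15 ± 0.61 (adjusted p = 0.819, edgeR), with 0% of genes called (664 at an unadjusted p under 0.05, and 15 called by DESeq2). The luminal RFP effect was 1.16 ± 0.59 larger in AP than in VP, which did not pass (adjusted p = 0.342, edgeR), where 2.88% of genes were called. *Runx2* and *Cbfb* passed in none of the 4 such differences.

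**Figure D2:**
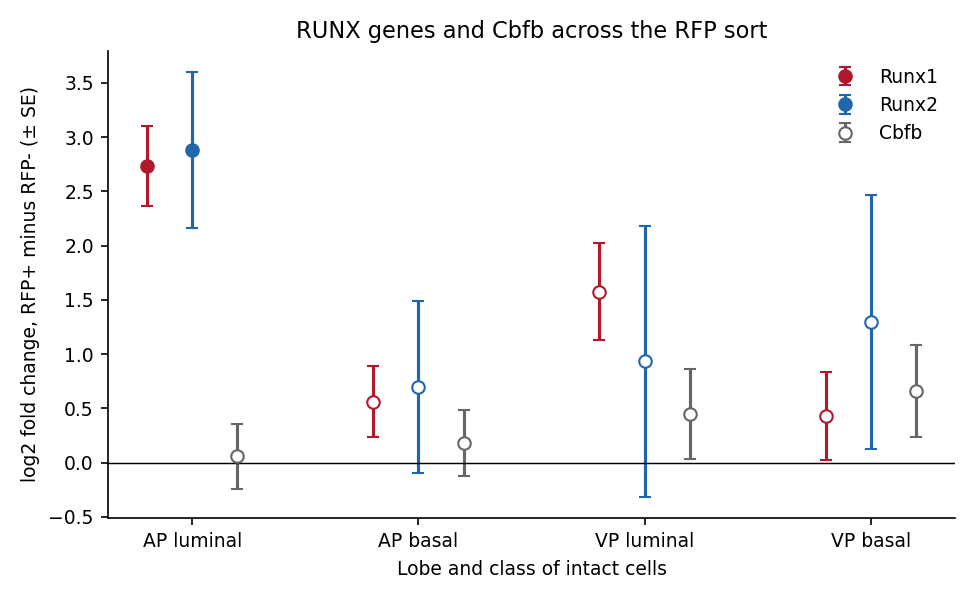
Log2 fold change from RFP- to RFP+ (± SE, edgeR) of *Runx1*, *Runx2* and *Cbfb* in AP and VP luminal and basal cells of intact mice. Filled points passed an adjusted p of 0.05 in the fit without run as a block, which held for *Runx1* (2.73) and *Runx2* (2.88) in AP luminal cells. With run as a block *Runx1* in VP luminal cells also passed.

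In AP luminal cells the sort was also seen cell by cell. *Runx1* was detected in 67.7%, 67.3% and 64.6% of AP RFP+ luminal cells and in 20.3%, 14.7% and 17.9% of AP RFP- luminal cells. After each cell was thinned to 4000 UMIs these shares were 34.5%, 45.8% and 37.8% against 6.94%, 4.86% and 16.7%. An RFP+ luminal AP cell drawn at random held more of the thinned UMIs than an RFP- one with a probability of 0.64, 0.71 and 0.61 in the 3 runs, ties shared equally.

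In the AP the basal fractions overlapped more. Thinned shares were 33.5%, 39.4% and 46.5% in AP RFP+ basal cells and 19.0%, 26.0% and 32.3% in AP RFP- basal cells, and the same probability was 0.57 in each run. In VP luminal cells it was 0.46, 0.53 and 0.55, and in VP basal cells 0.51 and 0.62 (runs 2 and 3). Few thinned VP luminal cells held a *Runx1* UMI (12.5%, 8.85% and 10.8% of RFP+ cells), so most pairs tied. In VP RFP+ basal cells these shares were 24.6% and 43.9% (runs 2 and 3). Ties limit how far the probability can move, so it cannot decide whether the fractions were closer in VP basal or luminal cells. From 19.0% to 32.3% of AP RFP- basal cells thus held *Runx1* mRNA at that depth. No class here is known to lack *Runx1*, and the lowest thinned share over all adult cells of a class was 4.55%, in the 23 cells with mesonephric markers (median depth 23954 UMIs).

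Along the *Krt5* and *Krt14* scale the fractions of the AP differed at its low end. With under 1 such UMI per 10000, AP RFP+ cells held 116 *Runx1* CPM (95% exact interval 108 to 125) and AP RFP- cells 12.8 CPM (9.99 to 16.1). In RFP- cells the level was 129 CPM (59.0 to 245) already between 1 and 2.5 and 114 CPM (66.4 to 182) between 2.5 and 5, from 10 and 15 cells, and 93.2 CPM (81.3 to 106) at 20 or more. In RFP+ cells it was 127 CPM (118 to 137) at 20 or more. RFP- cells thus held little *Runx1* only where the basal keratins were nearly absent, and these intervals pool the 3 runs and cover counting error only.

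The DLP could be compared in run 3 alone, so no test was made. Basal cells held 131 *Runx1* CPM in RFP+ and 74.3 CPM in RFP-, a ratio of 1.77 (95% exact interval 1.48 to 2.12, counting error only). Luminal cells held 29.4 and 17.0 CPM, a ratio of 1.73 (1.12 to 2.77). The DLP RFP+ luminal cells had 60.3% of their UMIs in the 50 abundant genes and the RFP- cells 31.1%, and without those genes the luminal ratio was 3.00. *Cbfb* stood at 7.11 and 21.4 CPM in the same luminal cells (ratio 0.33), and at 26.4 and 33.2 CPM in the basal ones. Without the abundant genes the luminal *Cbfb* ratio was 0.58, and among cells under 7500 UMIs it was 1.25.

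The second comparison set basal against luminal cells of the same fraction. *Runx1* was higher in basal cells of AP RFP- by 2.34 ± 0.37 (adjusted p = 1.91e-05, edgeR), of DLP RFP- by 1.61 ± 0.38 (adjusted p = 0.00184, edgeR), of VP RFP+ by 1.29 ± 0.36 (adjusted p = 0.00570, edgeR) and of VP RFP- by 2.44 ± 0.48 (adjusted p = 0.000354, edgeR). In AP RFP+ cells the difference was 0.16 ± 0.32 (adjusted p = 0.759, edgeR). The genes called in these 5 comparisons were 27.6% (AP RFP+), 38.8% (AP RFP-), 35.9% (DLP RFP-), 38.2% (VP RFP+) and 33.9% (VP RFP-) of all tested.

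*Cbfb* and *Runx2* were called once each across the layers. *Cbfb* was higher in basal cells of VP RFP+ by 1.30 ± 0.36 (adjusted p = 0.00509, edgeR), and *Runx2* was lower in basal cells of AP RFP+ by -1.71 ± 0.60 (adjusted p = 0.0343, edgeR). Several calls needed run 2 or run 3. Without run 2 the *Runx1* difference was 1.69 in DLP RFP- (adjusted p = 0.0524, edgeR), 1.10 in VP RFP+ (adjusted p = 0.177, edgeR) and 2.34 in VP RFP- (adjusted p = 0.0657, edgeR). Without run 3 it was 1.36 in DLP RFP- (adjusted p = 0.0619, edgeR) and 1.20 in VP RFP+ (adjusted p = 0.0579, edgeR). *Cbfb* without run 2 was at 1.13 (adjusted p = 0.172, edgeR), and *Runx2* at -1.60 without run 2 (adjusted p = 0.143, edgeR) and -1.69 without run 3 (adjusted p = 0.174, edgeR). Without run 1 *Runx2* was called higher in basal cells of VP RFP+ (2.60, adjusted p = 0.0238, edgeR), where all runs gave 1.48 ± 0.92. Among cells under 7500 UMIs the *Runx1* difference was not called in AP RFP- (1.36, adjusted p = 0.203, edgeR) or DLP RFP- (0.83, adjusted p = 0.499, edgeR), and it was -0.15 in AP RFP+, and -0.63 in VP RFP+, where a single run was left.

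Among epithelial cells *Runx2* was highest in the AP RFP+ luminal population. It stood at 33.6, 12.2 and 19.4 CPM in AP RFP+ luminal cells and at 6.30, 0.873 and 1.195 CPM in AP RFP- luminal cells. All RFP+ values lay above all RFP- values, and the level varied more between runs than that of *Runx1*. The log2 fold change was 2.88 ± 0.72 (adjusted p = 0.00483, edgeR), with 2.497 without run 2 (adjusted p = 0.0864, edgeR) and 2.74 without run 3 (adjusted p = 0.0601, edgeR).

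No other intact population overlapped AP RFP+ luminal cells in *Runx2*. The next highest were DLP RFP+ basal cells at 8.92 CPM (run 3 alone) and VP RFP+ basal cells at 3.39, 11.2 and 6.06 CPM, from 1, 9 and 2 UMIs. AP RFP+ basal cells held 11.4, 1.43 and 5.35 CPM. *Runx2* was detected in 42.8%, 15.4% and 17.4% of AP RFP+ luminal cells, and in 12.7%, 5.21% and 8.78% after thinning. Outside the epithelium, the 89 adult cells with mesenchyme markers held 23.9 CPM (15.0 to 36.2), from 22 UMIs.

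*Cbfb* was not called in any of the 4 RFP contrasts. AP luminal cells held 14.5, 14.5 and 23.5 CPM in RFP+ and 15.7, 14.6 and 15.54 CPM in RFP-, a log2 fold change of 0.06 ± 0.30 (adjusted p = 0.947, edgeR). AP basal cells held 20.5, 21.5 and 20.9 CPM in RFP+ and 20.02, 22.7 and 14.2 CPM in RFP- (0.18 ± 0.31). The RFP+ and RFP- values overlapped in both layers. In the VP the fold changes were 0.45 ± 0.41 in luminal and 0.66 ± 0.42 in basal cells, which did not pass either.

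The third comparison set lobes against each other. Among luminal RFP+ cells, AP exceeded VP in *Runx1* by 1.68 ± 0.33 (adjusted p = 0.000445, edgeR) and in *Runx2* by 2.91 ± 0.67 (adjusted p = 0.00206, edgeR), where 24.8% of genes were called (3981 genes under the block, 2640 without). Without run 2 *Runx1* was at 1.34 (adjusted p = 0.100, edgeR), and without run 3 *Runx2* at 2.62 (adjusted p = 0.0685, edgeR). Among cells under 7500 UMIs, with a single VP run left, the *Runx1* difference was -0.36. *Cbfb* differed by 0.78 ± 0.30 (adjusted p = 0.0547, edgeR), and by 0.83 ± 0.25 with run as a block (adjusted p = 0.0115, edgeR). It was also called without run 1 (1.04, adjusted p = 0.0327, edgeR).

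Among luminal RFP- cells *Cbfb* was the member that passed. VP held 5.41, 4.41 and 0.784 CPM, from 3, 13 and 1 UMIs, and DLP 14.9, 13.0 and 21.4 CPM. DLP exceeded VP by 1.40 ± 0.42 (adjusted p = 0.0381, edgeR), where 7.24% of genes were called (1535 genes under the block, 771 without), but not without run 2 (2.01, adjusted p = 0.219, edgeR) or run 3 (0.79, adjusted p = 0.490, edgeR). AP exceeded VP by 1.17 ± 0.41 (adjusted p = 0.0548, edgeR; with the block 1.21 ± 0.38, adjusted p = 0.0217), where 14% of genes were called. *Runx1* differed by 0.52 ± 0.48 between AP and VP (adjusted p = 0.549, edgeR), and none of the 3 genes passed between DLP and AP, where 1.1% of genes were called (326 genes under the block, 117 without).

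In basal cells none of the 3 genes was called in any of the 4 lobe comparisons. Of all genes, 0.357% were called for AP minus VP RFP+ (186 genes under the block, 38 without) and 0% for each of the 3 RFP- comparisons, in which 713 (AP minus VP), 449 (DLP minus AP) and 325 (DLP minus VP) genes had an unadjusted p under 0.05 and DESeq2 called 30, 0 and 0. With run as a block 12 genes were called for AP minus VP RFP-.

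*Runx3* was a gene of the leukocyte-marker cells. These held 93.1 CPM in run 1 (43 cells) and 239 CPM in run 2 (346 cells), and 66.3% of them had a UMI (51.6% after thinning, median depth 7196.5 UMIs). In basal and luminal cells 0.349% and 0.331% had one (median depths 8911.5 and 16320 UMIs), which is read as background. Over all intact and castrated adult epithelium there were 7 *Runx3* UMIs in basal and 11 in luminal cells. AP RFP+ luminal cells held 0 in all 3 runs, which allows up to 0.924, 1.74 and 1.53 CPM at 3 counts per sum.

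The leukocyte-marker cells were also divided by markers, with runs pooled. The 37 cells with *Cd3d* or *Cd3e* and no *Itgam* held 200 *Runx3* CPM (142 to 275) and 58.0 *Runx1* CPM (28.97 to 104). The 94 cells with *Itgam* alone held 135 *Runx3* CPM (111 to 162) and 171 *Runx1* CPM (144 to 202), and the 258 cells with none of these held 262 *Runx3* CPM (241 to 283) and 124 *Runx1* CPM (110 to 139). Of the 37 cells 36 came from run 2, and *Runx3* in the cells with *Itgam* alone was at 73.0 CPM in run 1 (23 cells) and 155 CPM in run 2 (70 cells), so kinds and runs are mixed in these values. Whole sorted populations moved with the number of these cells, since intact AP RFP+ cells of all classes held 82.2 *Runx3* CPM in run 2, 4.23 CPM in run 1 and 0 in run 3. *Cbfb* stood at 53.7 CPM (46.2 to 62.1) in leukocyte-marker cells, 23.4 CPM (21.4 to 25.5) in basal and 10.5 CPM (9.66 to 11.4) in luminal cells.

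**Figure D3:**
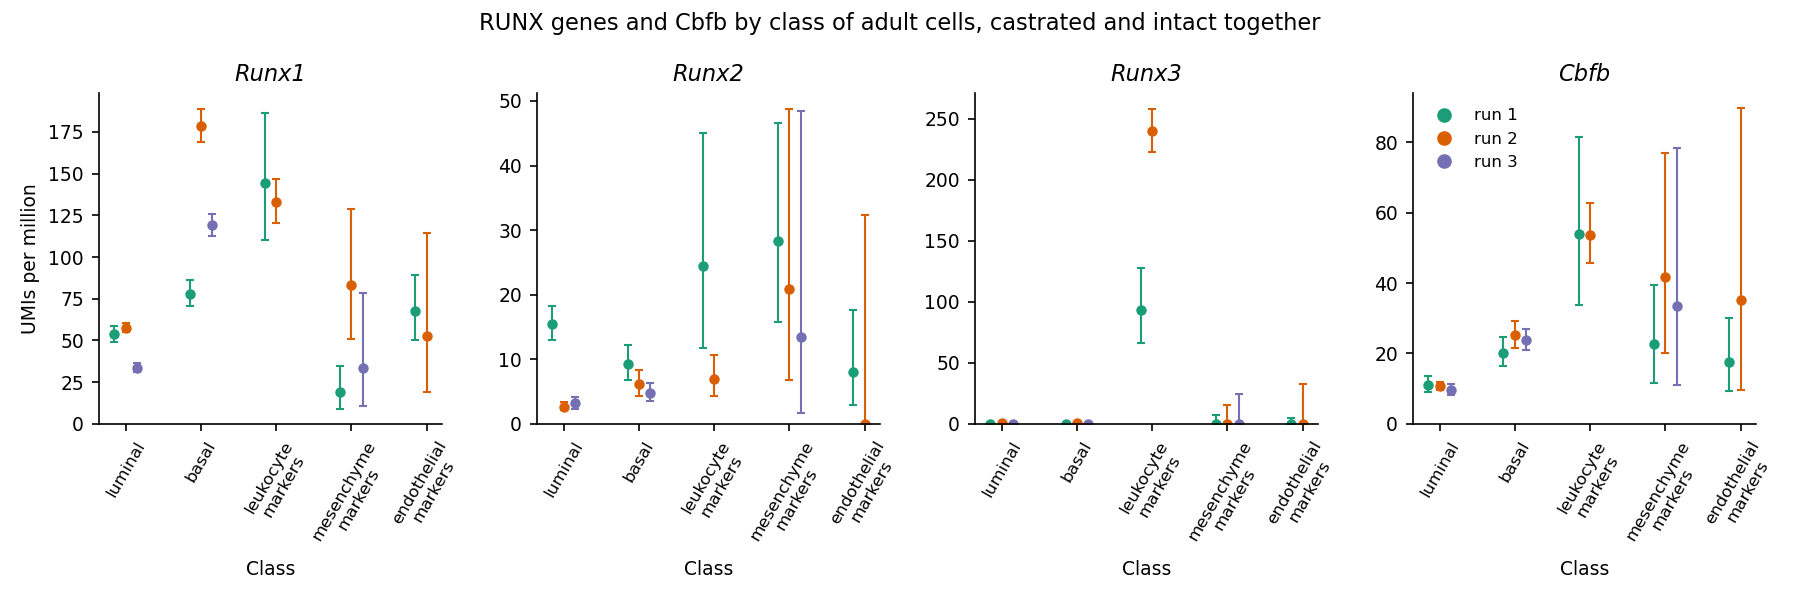
CPM of the 4 genes in adult cells, castrated and intact together, by class, with 1 point per run (classes with at least 10 cells) and its 95% exact Poisson interval. *Runx3* stands near 0 outside the leukocyte-marker cells, which were at 93.1 and 239 CPM, while *Runx1* and *Cbfb* were found in every class.

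The fourth comparison followed castration, within run 2, where each sorted population is 1 pool of mice and no test was made. The gate reads the *Runx1* reporter, and the paper reports a larger RFP+ share of epithelial cells after castration. Castrated and intact fractions of the same name can thus hold different cells, and the ratios do not give change within a fixed population. The intervals of these ratios cover counting error only. In basal cells *Runx1* was higher in castrated mice, at 323 against 163 CPM in AP RFP+ (ratio 1.98, 1.69 to 2.34) and 301 against 97.5 CPM in VP RFP+ (3.08, 2.29 to 4.17). Castrated DLP RFP+ basal cells held 333 CPM and had no intact partner in run 2. All 3 castrated basal values lay above every intact basal value of the 3 runs, of which the highest was 170 CPM.

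Luminal cells differed by population. In AP RFP+ luminal cells *Runx1* was at 116 CPM in castrated and 143 CPM in intact mice (ratio 0.81, 0.69 to 0.96), and the castrated value lay within the 104 to 143 CPM of the 3 intact runs. In AP RFP- luminal cells it was at 34.5 and 15.1 CPM (2.28, 1.43 to 3.60) and in DLP RFP- luminal cells at 50.8 and 26.1 CPM (1.95, 1.13 to 3.29). Among luminal populations paired in run 2 the widest gap was in VP RFP+ cells, at 103 against 15.4 CPM (6.72, 5.46 to 8.31). The 50 abundant genes held 35.2% of UMIs in these castrated cells and 67.3% in the intact ones, and without them the VP ratio was 3.40. Castrated DLP RFP+ luminal cells held 187 CPM (147 cells) and had no intact partner in run 2. Intact DLP RFP+ luminal cells of run 3 held 29.4 CPM. Without the 50 genes these values were 267 and 74.0. Castrated RFP+ luminal cells of run 1, with lobes mixed, held 210 CPM (11 cells).

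The sort still separated *Runx1* in castrated luminal cells. RFP+ exceeded RFP- cells 3.36 times in the AP (2.35 to 4.94) and 3.68 times in the DLP (2.48 to 5.69), where the RFP- values came from 33 and 26 UMIs. In the DLP the 50 abundant genes held 30.1% of UMIs in RFP+ and 54.9% in RFP- cells, and the ratio was 2.37 without them and 1.55 after thinning, with a cell-by-cell probability of 0.56. *Runx2* stood at 5.10 CPM in castrated and 12.2 CPM in intact AP RFP+ luminal cells (0.42, 0.21 to 0.83). *Cbfb* was at 9.29 against 3.79 CPM in VP RFP+ luminal cells (2.45, 1.38 to 4.27, and 1.24 without the abundant genes) and 26.6 against 21.5 CPM in AP RFP+ basal cells (1.24, 0.74 to 2.07). Castrated VP RFP+ luminal cells held 6 *Runx3* UMIs, in 1.43% of cells (2.42 CPM, 0.889 to 5.28).

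**Figure D4:**
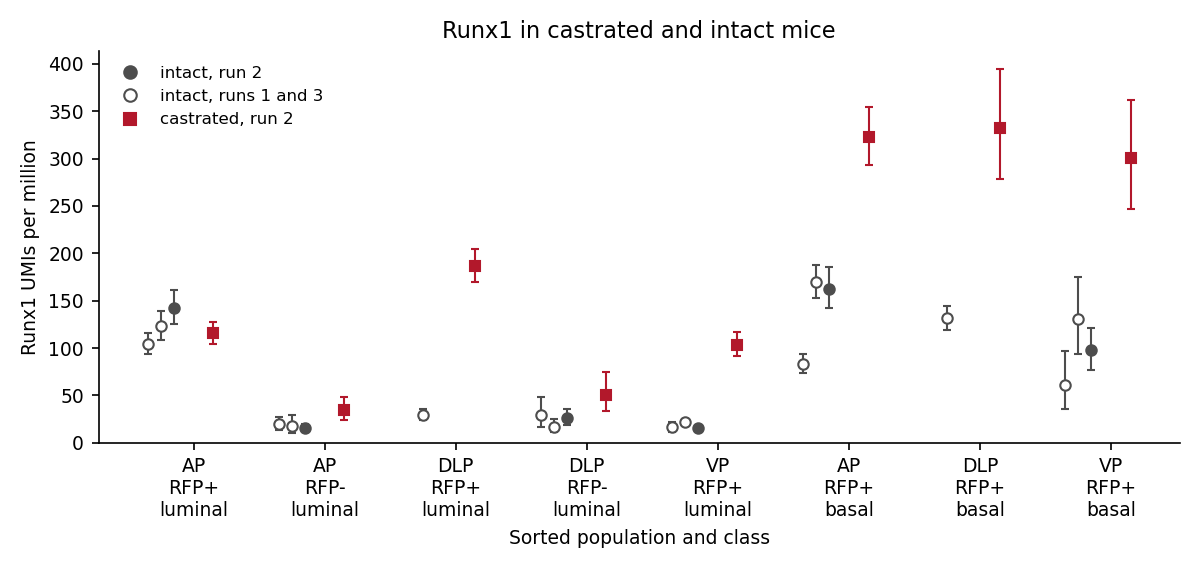
*Runx1* CPM in sorted populations and classes of intact (circles, run 2 filled) and castrated mice (squares, run 2), with 95% exact Poisson intervals. The 3 castrated basal populations sit between 301 and 333 CPM, above all intact ones.

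The explants gave the 4 genes over 6 days, from 1 library with different litters on each day, so days and litters cannot be told apart and no test was made. Over all cells *Runx1* was at 100, 86.1, 61.2 and 66.1 CPM on days 0, 1, 3 and 6, a ratio of 0.66 (0.62 to 0.70) from day 0 to day 6. Only 261 explant cells, before barcodes, had under 7500 UMIs, and among those assigned the ratio was 1.10. Cells at or over the *Krt5* and *Krt14* limit changed little, at 71.7, 84.1, 62.7 and 70.5 CPM (0.98, 0.90 to 1.08). Cells under it held 154, 70.8, 39.8 and 30.6 CPM (0.20, 0.17 to 0.23). The order of these keratin groups turned over, from a ratio of 0.47 (0.41 to 0.53) at day 0 to 2.30 (2.01 to 2.65) at day 6, high over low. They are set by the keratin limit alone and do not stand for basal and luminal layers. *Trp63* was detected in 73.3% of explant cells over the limit and 55.3% of those under it.

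Cells with urothelium markers went the other way. They held 81.8, 91.0, 108 and 123 *Runx1* CPM on the 4 days, a ratio of 1.51 (1.21 to 1.90) from day 0 to day 6. Cells with mesonephric markers held 172, 142, 80.7 and 99.9 CPM.

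*Runx2* resembled *Runx1* in the cells under the keratin limit. There it was at 15.1, 12.8, 3.90 and 2.65 CPM (0.17, 0.098 to 0.30), from 39, 28, 19 and 21 UMIs. In cells at or over the limit it was at 2.37 CPM on day 0 and 9.66, 6.24 and 7.05 CPM later (2.97, 1.90 to 4.86). *Cbfb* stayed between 24.6 and 39.2 CPM in both keratin groups on every day, and *Runx3* at or under 0.913 CPM. Among cells with mesonephric markers *Runx3* stood at 0.815, 3.73, 2.04 and 0 CPM, from 2, 5, 2 and 0 UMIs.

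**Figure D5:**
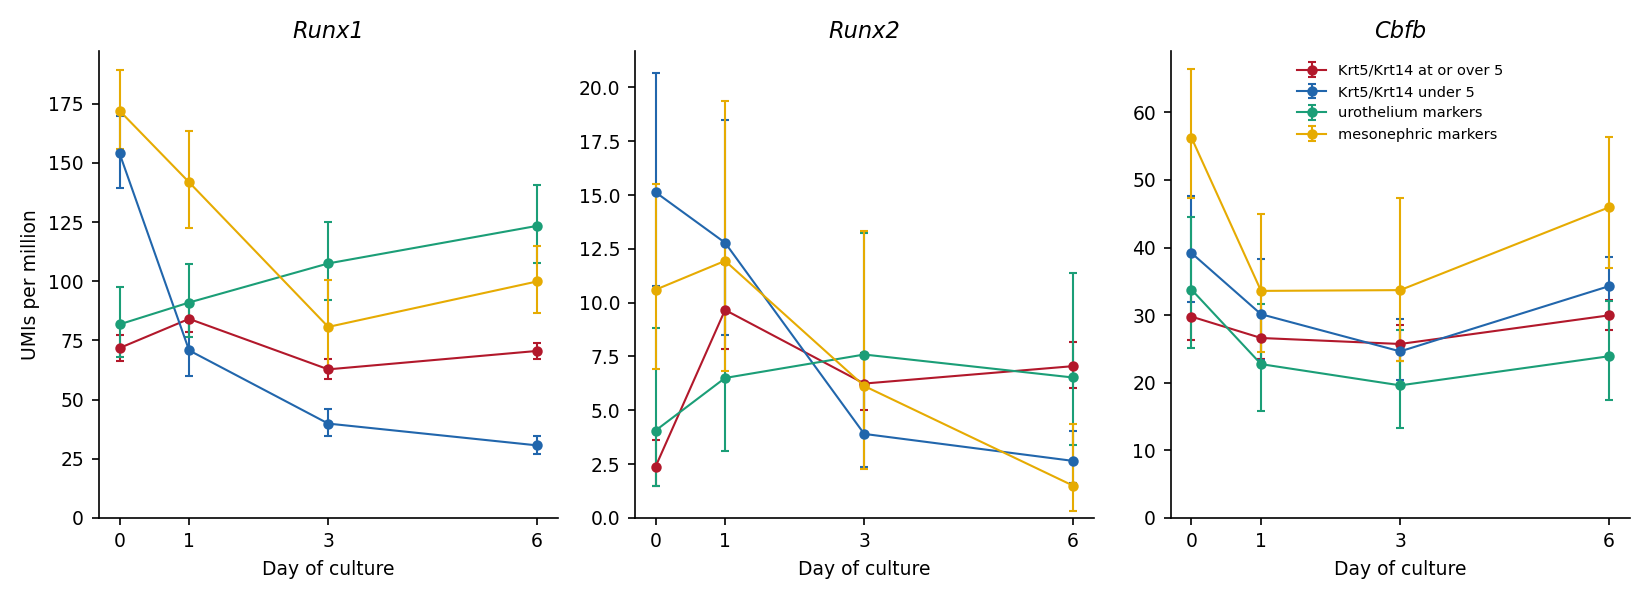
CPM of *Runx1*, *Runx2* and *Cbfb* in explant cells by day of culture and class, with 95% exact Poisson intervals. *Runx1* in cells under the *Krt5* and *Krt14* limit runs from 154 to 30.6 CPM, while cells at or over it stay between 62.7 and 84.1 CPM.

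Partners of RUNX proteins were read from a list of 26 genes, of which 23 were tested. From RFP- to RFP+ AP luminal cells 4 rose and 2 fell, where 10.9% of all genes rose and 9.76% fell, and the median log2 fold change of the list was 0.11 against 0.00 for all genes. *Foxp1*, a forkhead factor, rose 1.10 ± 0.21, and *Wwtr1*, the coactivator TAZ, rose 1.11 ± 0.33. *Gata3*, a luminal transcription factor, changed by -0.82 ± 0.26 and *Prmt1*, an arginine methyltransferase, by -0.52 ± 0.15. *Elf3* and *Tle3*, named after their values were seen, were the other two that rose, by 2.48 and 1.199.

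The list was called in no other RFP contrast. From luminal to basal cells 5 rose and 4 fell in AP RFP+, 9 and 3 in AP RFP-, 8 and 4 in DLP RFP-, 9 and 1 in VP RFP+, and 11 and 3 in VP RFP-. Of all genes 14.6% rose and 13.1% fell in AP RFP+, 20.2% and 18.5% in AP RFP-, 18% and 17.9% in DLP RFP-, 19.3% and 18.9% in VP RFP+, and 18.1% and 15.8% in VP RFP-. Between lobes of luminal cells 7 were higher and 1 lower in AP than VP RFP+, 2 and 1 in AP than VP RFP-, 3 and 0 in DLP than VP, and none in DLP against AP or in basal cells. The shares of all genes higher and lower were 13.7% and 11.1%, 7.23% and 6.74%, and 4.22% and 3.01% in the first 3 of these luminal comparisons, 0.676% and 0.422% in DLP against AP, and 0.113% and 0.244% in AP against VP RFP+ basal cells. Of the differences in RFP effect 2 partners were higher in AP than VP luminal cells and 1 was lower in AP basal than luminal cells, against 1.63% of all genes higher in the first and 2.91% lower (1.91% higher) in the second.

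A list of 18 RUNX targets known from bone, blood and immune cells left 6 genes to test, and 12 were too low. In AP luminal cells 2 rose with RFP and 0 fell, where 10.9% of all genes rose and 9.76% fell. *Lgals3*, the lectin galectin 3, rose 3.04 ± 1.03 (adjusted p = 0.0368, edgeR) and *Cdkn1a*, the cell cycle inhibitor p21, 1.68 ± 0.53 (adjusted p = 0.0237, edgeR). No target was called in the other 3 RFP contrasts, where at most 0.357% of all genes were. Basal cells had 2 higher in each of the 5 fractions, with 2 lower in AP RFP+, 1 in AP RFP-, DLP RFP- and VP RFP+, and 0 in VP RFP-. Of all genes 14.6% to 20.2% were higher and 13.1% to 18.9% lower in these 5 fractions. Between lobes 1 was higher, in AP against VP RFP+ luminal cells, where 13.7% of all genes were higher. No test of the list as a set was made.

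Among control genes for the sort and the classes, the keratins *Krt4* (3.09 ± 0.75) and *Krt8* (1.43 ± 0.34) were higher in AP RFP+ than in AP RFP- luminal cells, and the secretory gene *Pbsn* (-2.71 ± 0.90) was lower.

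Over the 29 intact sums the log2 CPM profile of *Runx1* was most like those of *Ahnak* (Pearson r = 0.97), *Jup* (0.95), *Ppl* (0.94), *Mecom* (0.94) and *Hbegf* (0.93). That of *Runx2* was most like *Cyba* (0.89), *Nr2f6* (0.84), *Kcnn4* (0.83), *Vdac2* (0.83) and *Mgst3* (0.82), and that of *Cbfb* like *Nfib* (0.94), *Atrx* (0.93), *Stip1* (0.93), *Rasa1* (0.93) and *Igf1r* (0.93). Sums of 1 run share a library, and the diluted ventral luminal sums pull most genes in the same direction, so these values are a description.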

How the data were processed

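The authors aligned 10x Genomics 3′ libraries to mm10 (GRCm38) with Cell Ranger 3.1.0 and deposited UMI counts of 31053 genes per cell barcode, with MULTI-seq barcode counts and the thresholds used to assign them; Seurat 3.1.5 is also named in the submitters' processing notes. Cells were kept with over 750 and under 7500 genes and under 10% mitochondrial UMIs (adult) or over 1000 genes and under 7.5% (explants). The study's methods write the adult upper limit as UMIs; genes were used here because the UMI limit leaves fewer cells than the study kept, and the written limit was run as an alternative. Cells with 0 or several barcodes were left out, which removes doublets between labelled populations but not within one. In runs 1 and 2 the intact DLP RFP+ barcode failed, so a doublet of such a cell with a labelled one can carry 1 barcode and stay. The study ran DoubletFinder on these runs for that reason. No doublet caller was run here. CPM are counts per 1000000 UMIs of a sum.

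The members and gene lists were chosen with earlier results of these data known. Classes came from summed marker UMIs per 10000: leukocyte 2, mesenchyme and endothelial 5, mesonephric 5 (adult) or 2 (explants) and urothelium 10 (explants), all set after the files were seen, and basal at least 5, for which 76 adult cells lay between 2.5 and 5 and 185 between 5 and 10 (352 and 652 in explants). Counts were summed per run, population and class (at least 10 cells; 29 sums of 279022 to 9231795 UMIs) and fitted together with edgeR 4.0.16 in R 4.3.3 (TMM, filterByExpr, quasi-likelihood F test, 19 residual degrees of freedom, Benjamini-Hochberg, threshold 0.05), with DESeq2 1.42.0 as an alternative. The SE was taken from the log2 fold change and F. Intervals are 95% exact Poisson or binomial ones and cover counting error only. No column of another series was used. Fits were tested on simulated data. Alternatives were another tool, filter, normalization, class limit, cell minimum or UMI limit, a run block, the 2 populations alone, thinning and leaving out each run; library totals without TMM were added after seeing the data.

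Populations of a run came from 1 pool of mice, so runs pair them. Deviations from group means correlated in each RFP contrast of each run (r = 0.24 to 0.49 in AP, 0.099 to 0.27 in VP). Named genes were the members, the 5 genes most like each in profile, and up to 4 called genes of each list in AP luminal cells with the highest mean CPM. Some control genes are not reported here.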

Additional observations from a re-analysis of the deposited data

Results flagged for a closer look

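The effect of the RFP sort on *Runx1* in the AP differed between basal and luminal cells by -2.17 ± 0.49 on the log2 scale (adjusted p = 0.00949, edgeR interaction, n = 3 runs), and the test of the difference itself brought it here. The effect was 2.73 in luminal and 0.56 in basal cells. Leaving out 1 run at a time gave -2.35 to -2.02, of which the fits without run 2 (adjusted p = 0.298, edgeR) and without run 3 (adjusted p = 0.115, edgeR) did not pass. What sets the 2 layers apart was not tested.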

How the results depend on the processing

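Of 523 alternative values of 44 tested member results, 461 kept direction and side of the threshold, 26 lost a call, 14 gained one and 22 turned in sign; except where a construction below names fewer cells or genes, the cause was not tested. Values are log2 differences unless called counts of genes, ratios or shares. Cells under 7500 UMIs (fewer cells, and no contrast of VP RFP- luminal cells could be fitted) gave *Runx1* 1.73 for RFP in AP luminal cells, -0.15, 1.36, 0.83 and -0.63 for basal minus luminal in AP RFP+, AP RFP-, DLP RFP- and VP RFP+, -0.36 for AP minus VP RFP+ luminal, and -0.28 and -1.51 for the difference of RFP effects between AP and VP basal cells and between AP layers. The counts there were 222 (RFP, AP luminal), 0 (RFP, VP basal), 529, 349, 523 and 34 (basal minus luminal, in the order above), 24 (AP minus VP RFP+ luminal), 2 (DLP minus AP luminal) and 26 (AP layers). The ratios were 1.54 for castrated over intact AP RFP+ basal, 2.15 and 10.6 for DLP RFP+ over RFP- basal and luminal, 1.25 for *Cbfb* in the latter and 1.10 for explant day 6 over day 0. Shares of cells with a UMI were 51.9% (*Runx1*, AP RFP+ luminal, run 3), 57.2% (*Runx3*, AP RFP+ leukocyte-marker cells, run 2) and 12.5% and 25.8% (*Runx1*, explant days 0 and 6).

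With run as a replicate block, *Runx1* stood at 1.65 for RFP in VP luminal cells and -0.0484 for the AP minus VP difference in basal cells, *Cbfb* at 0.83 and 1.21 for AP minus VP RFP+ and RFP- luminal, and *Runx2* at 0.19 for DLP minus AP. The block gave counts of 97 (RFP, VP luminal), 15 (RFP, VP basal), 3981 (AP minus VP RFP+ luminal), 326 (DLP minus AP), 1535 (DLP minus VP) and 1348 (AP layers), and changed no other member's call. Without a filter on low counts *Runx1* in VP luminal cells was at 1.61, with counts of 39 (RFP, AP basal), 159 (RFP, VP luminal), 122 (RFP, VP basal), 320 (DLP minus AP) and 784 (AP layers). DESeq2 gave *Runx2* -1.84 for AP RFP+ basal minus luminal and 0.14 for DLP minus AP, *Cbfb* 1.39 for DLP minus VP, and counts of 64 and 3 for RFP in VP luminal and basal cells. Library totals without TMM, added after seeing the data, gave *Runx2* -1.73 and 2.56 for basal minus luminal in AP RFP+ and VP RFP+, *Cbfb* 1.99 for VP RFP- basal minus luminal and 1.91 and 2.12 for AP minus VP RFP+ and RFP- luminal, *Runx1* 1.47 for AP minus VP RFP-, 1.91 for DLP minus VP and -0.0672 for the AP minus VP difference in basal cells, and counts of 0 (RFP, VP basal), 6412 (VP RFP+ basal minus luminal), 7735 and 5910 (AP minus VP RFP+ and RFP- luminal) and 4616 (DLP minus VP). Without the 50 most abundant genes in the library size *Cbfb* was at 0.80 for AP minus VP RFP+ luminal, *Runx2* at 0.013 for DLP minus AP, and *Runx1* ratios at 2.37 (castrated DLP luminal RFP+ over RFP-), 3.396 (castrated over intact VP RFP+ luminal) and 3.00 (DLP luminal RFP+ over RFP-). At least 20 cells per sum gave *Runx2* 0.0093 for DLP minus AP and *Cbfb* 1.49 for DLP minus VP. Basal at 10 or more and luminal under 2.5 gave *Runx2* 0.0595, *Cbfb* 1.36, and explant *Runx1* ratios of 1.09 and 0.12 (day 6 over day 0, over and under the limit) and 0.34 and 3.04 (over against under it, days 0 and 6). Fitting only the 2 populations compared gave *Cbfb* 1.40 for DLP minus VP, with counts of 18 and 11 (RFP, VP luminal and basal), 54 (DLP minus AP) and 403 (DLP minus VP). Thinning to 4000 UMIs gave *Runx1* ratios of 0.58 (castrated over intact AP RFP+ luminal), 1.55 (castrated DLP luminal RFP+ over RFP-), 4.02 (castrated over intact VP RFP+ luminal), 0.74 and 1.19 (explant day 6 over day 0, all and over the limit) and 0.40 (over against under it, day 0), and shares of 37.8%, 32.3%, 54.8%, 26.5% and 22.3% (*Runx1* in AP RFP+ luminal and AP RFP- basal cells of run 3, *Runx3* in AP RFP+ leukocyte-marker cells, *Runx1* on days 0 and 6). Without cells holding a *Ptprc* UMI that *Runx3* share was 60%.

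Leaving out 1 run at a time gave, for RFP, *Runx1* 1.17 to 1.81 in VP luminal cells, *Runx2* 2.497 to 3.85 in AP luminal and -0.0063 to 1.93 in AP basal cells, and *Cbfb* -0.24 to 0.26 in AP luminal, -0.025 to 0.32 in AP basal and -0.11 to 1.18 in VP luminal cells. For basal minus luminal *Runx1* ranged from -0.0832 to 0.25 (AP RFP+), 1.36 to 1.70 (DLP RFP-), 1.10 to 1.45 (VP RFP+) and 2.25 to 2.58 (VP RFP-), *Runx2* from -2.12 to -1.60 (AP RFP+), -1.03 to 1.74 (AP RFP-), 0.17 to 2.60 (VP RFP+) and -0.84 to 2.43 (VP RFP-), and *Cbfb* from 1.13 to 1.41 (VP RFP+). Between luminal lobes AP minus VP RFP+ ranged from 1.34 to 1.91 (*Runx1*), 2.62 to 3.45 (*Runx2*) and 0.65 to 1.04 (*Cbfb*), DLP minus AP from -0.61 to 0.54 (*Runx2*) and -0.0295 to 0.34 (*Cbfb*), and DLP minus VP from 0.79 to 2.01 (*Cbfb*). The *Runx1* differences of RFP effects ranged from -0.0779 to 0.49 (AP minus VP, basal) and -2.35 to -2.02 (AP layers). Counts ranged from 714 to 1699, 0 to 50 and 0 to 0 (RFP in AP luminal, VP luminal and VP basal), 1515 to 2513, 2218 to 3710, 2125 to 3704, 2231 to 3732 and 1308 to 3673 (basal minus luminal in AP RFP+, AP RFP-, DLP RFP-, VP RFP+ and VP RFP-), 1351 to 2253, 555 to 1240, 6 to 86 and 121 to 710 (AP minus VP RFP+ and RFP-, DLP minus AP and DLP minus VP luminal) and 0 to 239 (AP layers). Depth limits *Runx3*, which entered no test, and *Runx2*, of which many sums held under 5 UMIs.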

Other observations

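Cells that carried no barcode, several barcodes or too few barcode reads belong to no sorted population. *Runx1* stood at 59.0, 69.2 and 73.9 CPM in 1067, 2204 and 570 such cells of adult runs 1, 2 and 3 and at 71.5 CPM in 1416 explant cells. *Runx3* stood there at 7.38, 10.4 and 0.182 CPM in the adult runs and 0.509 CPM in explants.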
